A study of Mus musculus with 2 samples.

Results

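Microfold-like cells were the thymic epithelial cells (TECs) with at least 10 unique molecular identifiers (UMIs) of Gp2, Ccl6, Ccl9 and Ccl20 together per 10000 UMIs of the cell. Each UMI stands for an RNA molecule captured from a cell. There were 200 of them among 8303 cells kept, 94 from the control and 106 from the irradiated library. Cells with 5 or more Aire UMIs, 5 or more of Avil plus Trpm5, 15 or more of Psmb11 plus Prss16, or 4 or more of Mki67 plus Top2a per 10000 were left out by the same rule, so Aire-high, tuft-marker, cortical and cycling cells could not be members. The study followed the thymic epithelium after irradiation, and each library held EpCAM+ CD45- TER119- cells sorted from 3 pooled female C57BL/6 mice. Control mice were 9 weeks old by the age label and not irradiated, although the labels' protocol speaks of mice of 4 weeks. The other mice were exposed to 5.5 Gy at 7 weeks and taken 15 days later, also at 9 weeks of age. The labels name no allele beyond the C57BL/6 strain. With 1 library of pooled mice per condition, no difference between conditions has a replicate check and none was tested.

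The deposit's labels name the 2 libraries the other way round. The library called control here is labelled radiation there, and the names used here follow the numbers of cells kept and the names of the deposited tables. Every direction between the libraries would reverse under the labels. The kept cells had a median of 13412 UMIs (3233 control cells) and 13003.5 UMIs (5070 irradiated cells). The 94 control members had a median of 15217.5 UMIs, from 4262 to 43820, and held 1484663 UMIs together. The 106 irradiated members had a median of 13650.5, from 5118 to 39350, and held 1558208. Of the cell barcodes, 17 occurred in both libraries, and 0 of these were members.

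Microfold cells, or M cells, are epithelial cells that lie over lymphoid follicles of the gut and airways and carry particles and microbes from the lumen to the immune cells beneath. They form when RANK ligand acts on epithelial RANK and, through NF-kB, turns on the transcription factors Spib and Sox8, which are needed for their maturation. In the thymic medulla, some medullary TECs take on gene programmes of peripheral cell types, M cells among them, and are called mimetic cells. They are thought to show peripheral antigens to developing T cells. Gp2 is the receptor with which mature M cells take up bacteria. Ccl20 attracts lymphocytes and dendritic cells that bear CCR6, and Ccl6 and Ccl9 are related CC chemokines made over the follicles.

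The genes of the rule lie at chr7:119442537-119459285 (Gp2), chr11:83587882-83593087 (Ccl6), chr11:83572919-83578636 (Ccl9) and chr1:83116766-83119167 (Ccl20) in GRCm38, from the GENCODE M21 annotation. Ccl6 and Ccl9 are neighbours on the same strand, with 9245 bases between them. The 250 bases before each gene's RefSeq start are shown because these 4 genes define the cells, 5′ to 3′ on the gene's strand, from RefSeq promoters on GRCm38.p6. For Gp2, the RefSeq start lies 13 bases inside the gene as GENCODE gives it. Capitals mark the letters AGGAAGT, a core that ETS factors such as Spib can bind, the letters GGGANNNNCC of an NF-kB site, and TATAAA. Each was searched on both strands, and only the matches to TATAAA before Ccl9 overlap one another.
Ccl20: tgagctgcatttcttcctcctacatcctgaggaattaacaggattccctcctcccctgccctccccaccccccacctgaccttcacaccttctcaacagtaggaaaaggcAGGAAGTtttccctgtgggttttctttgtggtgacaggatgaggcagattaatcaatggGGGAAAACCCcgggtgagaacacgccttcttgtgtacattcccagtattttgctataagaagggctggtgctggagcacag
Ccl6: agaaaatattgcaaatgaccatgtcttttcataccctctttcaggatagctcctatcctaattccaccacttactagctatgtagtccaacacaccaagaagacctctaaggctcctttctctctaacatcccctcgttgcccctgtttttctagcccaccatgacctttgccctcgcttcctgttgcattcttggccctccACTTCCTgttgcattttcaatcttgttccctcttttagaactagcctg
Ccl9: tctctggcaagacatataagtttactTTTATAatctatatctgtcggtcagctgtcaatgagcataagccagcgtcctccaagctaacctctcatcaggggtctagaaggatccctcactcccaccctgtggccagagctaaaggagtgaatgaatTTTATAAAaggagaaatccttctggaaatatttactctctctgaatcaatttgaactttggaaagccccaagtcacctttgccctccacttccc
Gp2: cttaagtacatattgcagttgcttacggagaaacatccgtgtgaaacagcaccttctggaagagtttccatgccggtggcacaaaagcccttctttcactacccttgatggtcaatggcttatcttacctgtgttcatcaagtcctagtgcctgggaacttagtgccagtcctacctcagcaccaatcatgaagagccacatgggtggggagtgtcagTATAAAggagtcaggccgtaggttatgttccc
These windows are chr1:83116516-83116765 on the plus strand and chr11:83593088-83593337, chr11:83578637-83578886 and chr7:119459273-119459522 on the minus strand. The Ccl20 window held an AGGAAGT from 140 to 134 bases before the start and a GGGANNNNCC from 81 to 72 bases before it. The Ccl6 window held AGGAAGT on the opposite strand, from 48 to 42 bases before the start. Gp2 had TATAAA from 32 to 27 bases before its RefSeq start. Among 32851 promoter windows of the same length, 7.69% held AGGAAGT, 17.6% held GGGANNNNCC and 12.4% held TATAAA. A match is a run of letters, and binding was not measured.

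The members were selected on the 4 genes, so the levels of these genes describe the selection. Ccl20 was the highest of the 4 in 56 of 94 control and 73 of 106 irradiated members. Ccl9 led in 16 and 25 cells, Ccl6 in 14 and 5, and Gp2 in 8 and 3. The median control member had 18.3 Ccl20, 9.39 Ccl9, 2.91 Ccl6 and 0 Gp2 UMIs per 10000, and the median irradiated member had 25.5, 9.00, 0 and 0. Gp2 had no UMI in 63 of 94 and 71 of 106 members, although it is the M cell gene of the list. Thus most cells entered through the chemokines. Summed over the members, Gp2 stood at 6.65 UMIs per 10000 (95% Poisson interval 6.24 to 7.08) in the control and 6.11 (5.73 to 6.51) in the irradiated library. Ccl20 stood at 43.5 (42.4 to 44.5) and 48.2 (47.1 to 49.3). Intervals of this kind cover counting error only.

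The marker sum ran from 10.1 to 418 in the control members, with a median of 42.0, and from 10.1 to 534 in the irradiated members, with a median of 40.4. Just inside the threshold, 9 control and 8 irradiated members had a sum of 10 to 12. Just outside it, 3 and 11 eligible cells had a sum of 8 to 10, the highest being 9.84 and 9.99. The sum was 0 in 83.1% of the 2083 control and 85.1% of the 2965 irradiated cells that met the other limits. A further 33 control and 36 irradiated cells reached the sum and were left out by a limit, 20 and 29 of them by Aire and 11 and 7 by the tuft genes. When the members were chosen again on a random part of each cell's UMIs and measured in the rest, 88 of 93 control and 100 of 104 irradiated cells so chosen were members. In the UMIs not used to choose them, Gp2 was at 6.37 and 6.10 and Ccl20 at 44.8 and 48.3 UMIs per 10000.

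Members made up 2.91% of the kept control cells (exact Clopper-Pearson 95% interval 2.36 to 3.55) and 2.09% of the kept irradiated cells (1.71 to 2.52). The log2 ratio of irradiated over control was -0.48, with a range of -1.05 to 0.10 from the opposite ends of the intervals, which is wider than a 95% interval of the ratio itself. The intervals of the shares overlapped, and the difference between the libraries was not tested. Of the kept cells' UMIs of the rule genes, members held 92.0% and 89.6% of Ccl6, 79.2% and 70.4% of Ccl9, 79.3% and 77.7% of Ccl20, and 63.2% and 65.6% of Gp2, as the selection on these genes fixes in part.

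Genes that the rule did not use were then measured for the name microfold-like. Spib (chr7:44525993-44532071), the ETS factor of M cell maturation, stood at 4.16 UMIs per 10000 (3.84 to 4.50) in control members and 3.14 (2.87 to 3.43) in irradiated members. In the other eligible cells it was at 0.483 and 0.554, and in Aire-high cells at 1.04 and 1.06. Tuft-marker cells came nearest, with 2.87 and 2.16. Sox8 (chr17:25565892-25570686), which acts with Spib in M cells, was at 0.930 (0.781 to 1.10) and 0.956 (0.809 to 1.12) in members against 0.0182 and 0.0186 in the other eligible cells. It was at most 0.239 in tuft-marker cells. Cr2, the complement receptor known from B cells and follicular dendritic cells, was at 2.56 (2.31 to 2.83) and 2.39 (2.15 to 2.64) in members and at most 0.218 in any comparison class outside the cells near the threshold. For these genes, the members were the highest class in each library.

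**Figure D1:**
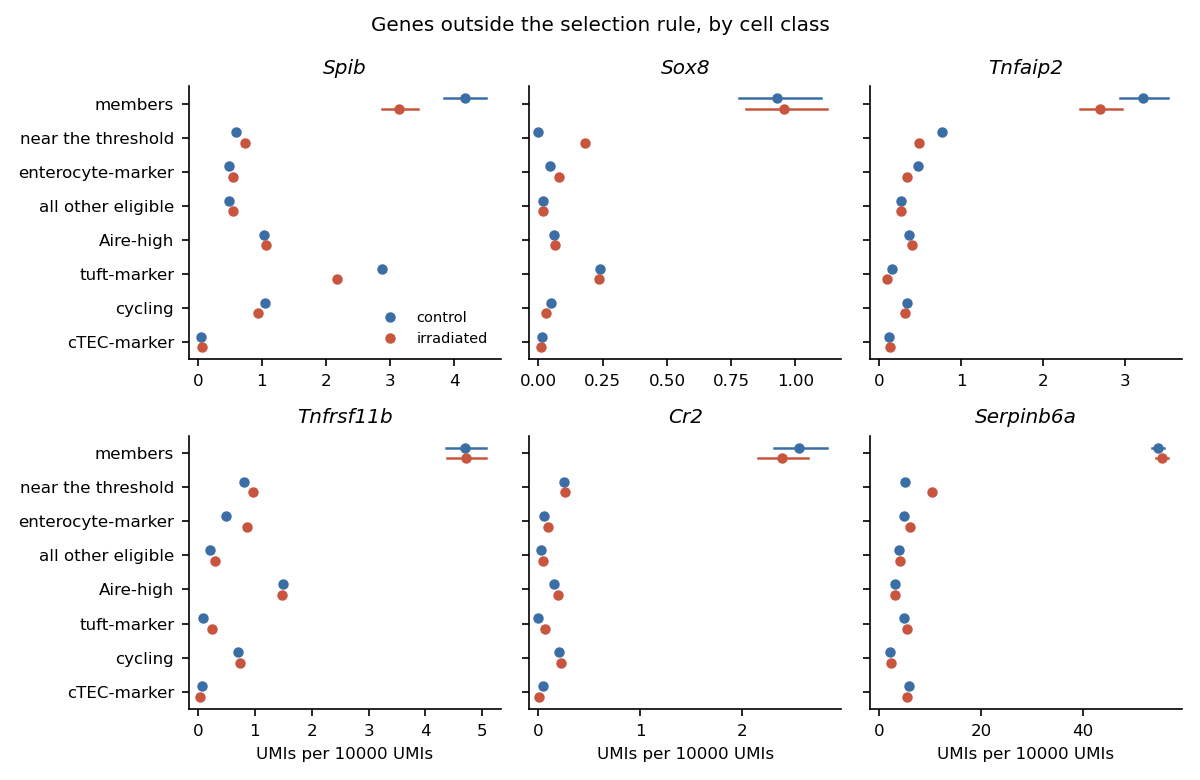
Summed level of 6 genes outside the selection rule, in UMIs per 10000 UMIs (x axis, linear), in 8 cell classes of the control (blue) and irradiated (red) library; bars on the members are 95% Poisson intervals, and the all other eligible class includes the near-threshold and enterocyte-marker cells. Members are highest in every panel, and tuft-marker cells come second for Spib, with 2.87 and 2.16 UMIs per 10000.

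The list of M cell genes outside the rule had 15 genes. Esrrg fell short of 100 UMIs over the members of both libraries, and the other 14 reached that minimum. Of these 14, 11 were 2-fold or more higher in members than in other eligible cells in both libraries, whereas 15.4% of all 4668 genes tested were so (719 genes), and 4.78% were 2-fold or more lower in both. The median log2 of members over other cells was 2.79 in the control and 2.59 in the irradiated library for the list, and 0.05 and 0.02 for all genes tested. The most abundant was Serpinb6a, an intracellular inhibitor of serine proteases, with 54.8 UMIs per 10000 (53.6 to 56.0) and 55.5 (54.3 to 56.7) in members against 3.88 and 4.04 in other cells. Related Serpinb6 genes lie nearby, and reads shared with them could not be told apart. Tnfaip2, which takes part in the tubular membrane protrusions of M cells, was at 3.23 and 2.70 against 0.267 and 0.267. The peptidoglycan-binding protein gene Pglyrp1 was at 24.5 and 16.9 against 0.734 and 0.697, and the cathepsin gene Ctsh at 13.0 and 14.9 against 1.43 and 1.34. Marcksl1, Rac2, Clu, Cxcl16 and Tnfrsf11b were the others. Anxa5 was at log2 1.05 and 0.57, Prnp at 0.96 and 1.23 and Scg5 at 0.98 and 0.86, so these 3 were not 2-fold higher in both libraries.

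Of the pathway that leads to M cells, the genes of RANK and of its decoy were higher in members than in other eligible cells. Tnfrsf11a, which encodes RANK, was at 2.59 and 2.64 UMIs per 10000 in members against 0.899 and 0.931 in other eligible cells. Tnfrsf11b encodes osteoprotegerin, the soluble decoy that binds RANK ligand, and was at 4.69 (4.35 to 5.06) and 4.72 (4.38 to 5.07) against 0.209 and 0.308. Aire-high cells came nearer, with 1.57 and 1.58 for Tnfrsf11a and 1.499 and 1.477 for Tnfrsf11b. Of the 17 genes tested in the list of RANK and NF-kB genes, only these 2 were 2-fold higher in both libraries and 0 were lower, with a median log2 of 0.70 and 0.59. That share is below the 15.4% of all genes tested. The whole list summed to 45.1 and 49.4 UMIs per 10000 in members, 25.6 and 25.3 in other eligible cells and 48.5 and 51.0 in Aire-high cells. Of 8 ETS and SOX factors tested, Spib, Elf3 and Sox8 were higher and 1 was lower. MHC class II genes had 2 of 12 higher, close to the share of all genes, Ctss and Ctsh, both of which encode lysosomal proteases, with a median of 0.16 and 0.32. Among the 16 endocytosis and vesicle genes tested, Tnfaip2, Rab11a, Vamp8, Ctsd and Ctsz were higher. None of the 14 interferon response genes tested was higher in both libraries, and 6 were lower, beside 4.78% lower of all genes tested. The median log2 of these 14 was -1.03 and -0.78. The whole interferon list summed to 16.3 and 19.0 UMIs per 10000 in members and 40.3 and 42.1 in other eligible cells. It summed to 11.4 and 11.7 in Aire-high cells and 17.9 and 21.6 in tuft-marker cells, so the low level was not particular to the members.

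Genes of other mucosal cells accompanied the M cell genes. All 10 enterocyte genes tested were higher in members in both libraries, with a median log2 of 3.58 and 3.55, and 16 of 17 genes of mucosal secreted products were higher, beside the 15.4% of all genes tested. The antimicrobial lectin Reg3g was the most abundant in both lists. A sum of at least 10 UMIs per 10000 of Lypd8, Reg3g, Apoa4 and Saa1 was found in 75 of 94 control and 76 of 106 irradiated members, and in 191 of 1989 and 234 of 2859 other eligible cells. With the rule genes left out, and ranked by the lower of the libraries' folds among genes with a UMI in at least 25% of members, the leading 20 genes were Sox8, Cr2, Lyz1, Guca2b, Fgr, Fabp1, Abca13, Tmem45b, Mgam2-ps, Pglyrp1, Apoa4, Mmp7, 2810468N07Rik, Krt20, Hamp, Adgrg7, Opn3, Hsd17b6, Prg2 and Plekhs1. Lyz1, the lysozyme of Paneth cells, was at 25.4 and 20.9 UMIs per 10000, although reads of Lyz1 and Lyz2 could be mixed. Hamp, which encodes the liver's iron hormone hepcidin, was at 10.6 and 13.6. Fabp1, the fatty acid-binding protein of liver and gut, was at 4.38 and 4.92, and the gut keratin gene Krt20 at 3.06 and 2.69.

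Because Cr2, Fgr and Spib are also genes of blood cells, the markers of other cells were read beside them. Ptprc, which encodes CD45, had 3 UMIs in control and 25 in irradiated members, or 0.0202 and 0.160 UMIs per 10000, against 0.0333 and 0.0450 in other eligible cells. The whole list of 14 myeloid genes summed to 15.1 and 20.7 UMIs per 10000 in members and 9.76 and 8.29 in other cells, and its most abundant gene was Lyz2 with 8.74 and 8.41. Lyz2 stood at 7.21 and 6.31 in Aire-high cells too, and Itgax was at 0. Of the 4 myeloid genes with enough UMIs to test, Lyz2, Fcer1g and Itgam were 2-fold higher in members in both libraries. Of all genes tested, 15.4% were so. The median log2 of these 4 myeloid genes was 1.97 and 2.35. The B cell list of 6 genes summed to 0.768 and 0.488 in members and 0.305 and 0.254 in other eligible cells, and its most abundant gene Cd79b, the only one tested, had a log2 of 2.19 and 1.78. The 11 thymocyte genes summed to 0.445 and 1.25 in members and 0.331 and 0.349 in other eligible cells. Epcam, the epithelial antigen of the sort, was at 11.8 and 12.8 in members and 7.73 and 8.98 in other eligible cells. The part of blood cell RNA in the levels of Cr2, Fgr and Spib was not tested.

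Cells were thinned to 4000 UMIs each to compare detection. Spib then had a UMI in 43.6% of control members (33.4 to 54.2) and 42.5% of irradiated members (32.9 to 52.4), against 2.17% (0.451 to 6.22) and 2.47% (1.14 to 4.64) of cortical TECs, which served as the background. Before thinning, the shares were 56.4% and 60.4% of members and 6.52% and 6.32% of cortical TECs, whose median depths were 19735 and 17913 UMIs. Sox8 had a UMI in 18.1% and 17.9% of thinned members and in 0 of 138 and 1 of 364 thinned cortical TECs, counts that allow shares of up to 2.64% and 1.52%. Aire-high and other eligible cells lay between these for Spib, which had a UMI in 31.1% (27.6 to 34.8) and 32.04% (29.3 to 34.9) of thinned Aire-high cells and in 14.3% and 15.9% of the other eligible cells. Before thinning, 69.4% and 68.6% of Aire-high cells had a Spib UMI, a larger share than of members, at a median depth of 19323 and 16555 UMIs. Sox8 had a UMI in 1.79% and 2.17% of thinned Aire-high cells. So both genes were above the cortical background in the members, but Spib was also found in many Aire-high cells, and in many members neither gene was found. Pglyrp1 had a UMI in 63.8% and 67.9% of thinned members, against 25.1% and 25.5% of Aire-high and 7.24% and 6.87% of other eligible cells. For Tnfrsf11b these shares were 45.7% and 49.1%, 32.9% and 33.0%, and 5.23% and 6.10%.

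The members were not alike. The number of rule genes with a UMI was 1, 2, 3 and 4 in 22, 25, 26 and 21 control members and in 27, 28, 26 and 25 irradiated members. This split was chosen after the values had been seen, and it is given without a test. In the 47 control and 51 irradiated members with 3 or 4 rule genes, Spib was at 7.14 (6.57 to 7.74) and 5.11 (4.62 to 5.65) UMIs per 10000. In the 47 and 55 members with 1 or 2 rule genes it was at 0.579 (0.412 to 0.792) and 1.23 (0.994 to 1.49). In the control library, the second value was close to the 0.483 of the other eligible cells.

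Some other genes divided in the same way. Sox8 was at 1.65 and 1.84 in members with 3 or 4 rule genes and at 0.0594 and 0.101 in those with 1 or 2, on 4 and 8 UMIs. Cr2, which is not in the M cell list, was at 4.64 and 4.70 against 0.0594 and 0.152. Serpinb6a was at 96.1 (93.9 to 98.2) and 105 (103 to 107) against 5.03 (4.51 to 5.6) and 7.53 (6.94 to 8.16), and at 3.88 and 4.04 in the other eligible cells. Tnfaip2 was at 5.15 and 4.47 against 0.906 and 0.985, and Tnfrsf11b at 7.78 and 7.98 against 0.980 and 1.55. Anxa5, a phosphatidylserine-binding annexin, was at 31.9 and 27.4 against 5.0 and 5.23, the latter under the 9.47 and 10.9 of other eligible cells. Other M cell genes did not divide by 2-fold in both libraries. Marcksl1, which encodes an actin-regulating MARCKS-like protein, was at 20.1 and 21.98 with 3 or 4 rule genes and 12.9 and 23.5 with 1 or 2, against 6.50 and 6.85 in other eligible cells. Clu, the gene of the chaperone clusterin, was at 19.3 and 19.5 against 8.11 and 16.4, and Rac2, a small GTPase gene, at 6.23 and 6.40 against 3.71 and 3.08. In both sets, the levels of these 3 genes were above those of the other eligible cells.

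Over all genes tested, 3.47% were 2-fold or more higher in members with 3 or 4 rule genes than in those with 1 or 2 in both libraries (162 genes), and 3.28% were lower (153 genes). Of the 14 M cell genes outside the rule, 8 were higher, namely Spib, Sox8, Tnfaip2, Pglyrp1, Anxa5, Ctsh, Serpinb6a and Tnfrsf11b, and 0 were lower. Their median log2 was 1.34 and 1.59, against -0.10 and -0.06 for all genes tested. The 10 enterocyte genes tested had 0 higher and 1 lower, Reg3b, with a median of 0.10 and 0.23. Muc13, a mucin of the brush border, was at 4.36 and 3.91 in members with 3 or 4 rule genes and 5.18 and 2.60 in those with 1 or 2, against 0.271 and 0.239 in other eligible cells. Thus Muc13 was high in both sets of members, as were Marcksl1, Clu and Rac2, while those 8 M cell genes were higher in the first.

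**Figure D2:**
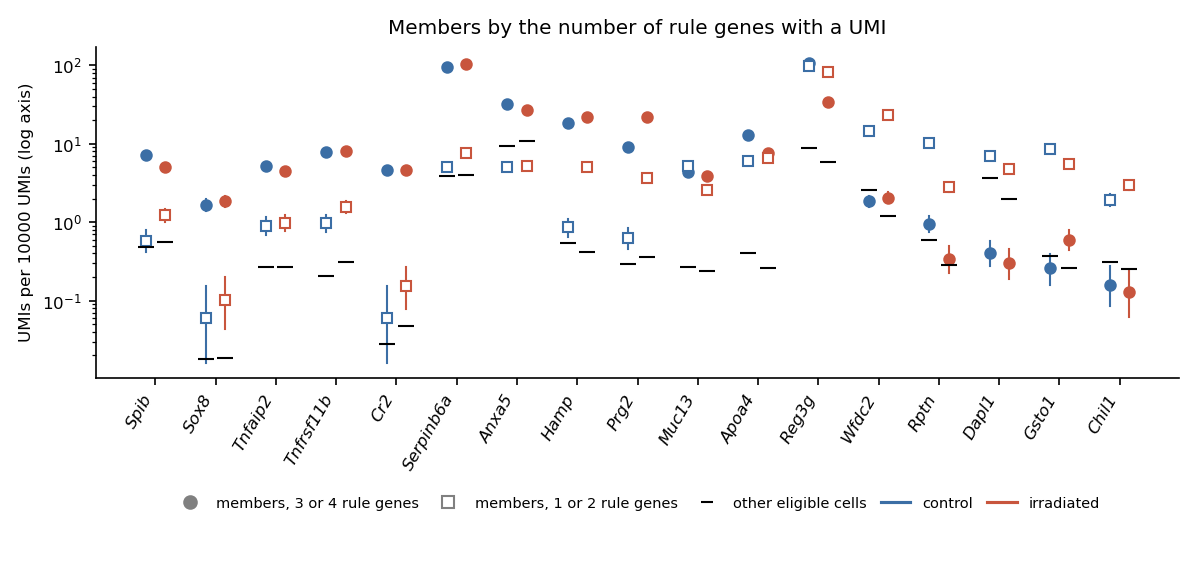
Summed levels of 17 genes in UMIs per 10000 UMIs (y axis, log) in members with UMIs of 3 or 4 rule genes (filled circles), members with 1 or 2 (open squares) and other eligible cells (dashes), control in blue and irradiated in red, with 95% Poisson intervals. Spib, Sox8, Cr2 and Serpinb6a are higher in the filled circles, Muc13 and Apoa4 exceed the other cells in both sets, and Wfdc2, Rptn, Dapl1, Gsto1 and Chil1 are higher in the open squares.

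The genes with the highest ratio for 3 or 4 rule genes, named after their values were seen, included Cr2, Sox8, Serpinb6a, Pthlh, Thbs1, Abca13, Prg2 and Cfp. Pthlh, which encodes a parathyroid hormone-like peptide, was at 2.22 and 2.49 UMIs per 10000 against 0.119 and 0.240. Cfp encodes properdin, a factor of the complement system, and was at 0.801 and 0.561 against 0.134 and 0.0505. The chemokine receptor gene Ccr7 was at 1.95 and 1.27 against 0.0742 and 0.227. Hamp was at 18.6 and 22.3 against 0.861 and 5.12.

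The members with 1 or 2 rule genes had genes of other epithelia. Rptn, a protein of the cornified envelope, was at 10.3 and 2.80 against 0.949 and 0.339 in members with 3 or 4 rule genes. Wfdc2, a secreted protease inhibitor of airway epithelium, was at 14.8 and 23.2 against 1.85 and 2.05, and Spink5, a protease inhibitor of skin, at 8.58 and 4.40 against 1.28 and 0.874. The chitinase-like gene Chil1 was at 1.93 and 2.96 against 0.160 and 0.130. Of 4 keratinocyte genes tested, Krt10, Krtdap and Sbsn were lower with 3 or 4 rule genes and Dsg1a was higher. Of 7 goblet and secretory genes, Muc5b, Agr2, Bpifa1 and Wfdc2 were lower, beside the 3.28% lower and 3.47% higher of all genes. Some of these rested on few cells, as Krt10 had UMIs in 11 and 8 members with 1 or 2 rule genes. The single-rule-gene members had Ccl20 alone in 13 control and 20 irradiated cells.

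**Figure D3:**
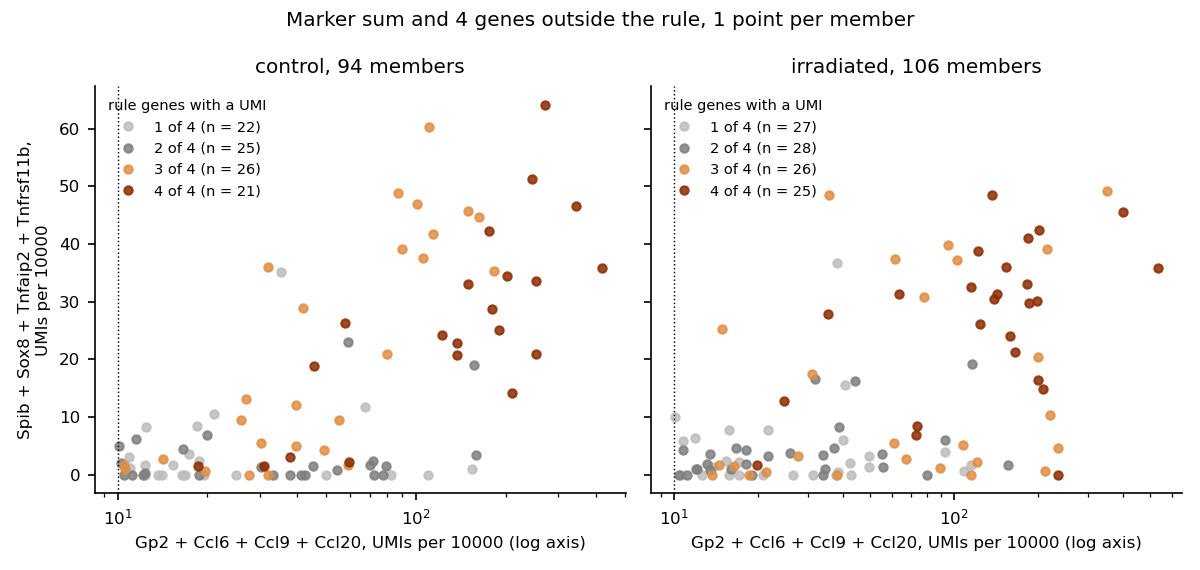
Each point is a member; the x axis is the marker sum used for selection and the y axis the sum of Spib, Sox8, Tnfaip2 and Tnfrsf11b, both in UMIs per 10000, and the colour is the number of rule genes with a UMI. The sum on the y axis was 10 or more in 36 control and 38 irradiated members, 31 and 32 of which had UMIs of 3 or 4 rule genes. Its genes were taken from the 8 M cell genes that differed by the number of rule genes, so this difference is not a separate result.

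In single cells, the sum of Spib, Sox8, Tnfaip2 and Tnfrsf11b reached 10 UMIs per 10000 in 36 of 94 control members and 38 of 106 irradiated members. It did so in 6 of 1989 and 11 of 2859 other eligible cells, or 0.302% and 0.385%. Among members with 3 or 4 rule genes the count was 31 of 47 and 32 of 51, and among those with 1 or 2 it was 5 of 47 and 6 of 55. The sum was 0 in 22 and 19 members. The genes of the sum were taken from the 8 M cell genes that divided by this split, so the difference between the sets is not a separate result. These genes were also already known to be higher in members than in other eligible cells, so that contrast is not a separate result either. By this sum, a share of the members had M cell genes at a high level. The members with 1 or 2 rule genes still exceeded the other eligible cells in single M cell genes, with Pglyrp1 at 13.2 and 6.46 against 0.734 and 0.697 and Ctsh at 7.13 and 9.41 against 1.43 and 1.34. Across the members of each library, Spearman's rho of Spib with Sox8 was 0.72 in 94 control cells and 0.72 in 106 irradiated cells, and with Tnfrsf11b it was 0.74 and 0.64. With Gp2 it was 0.22 and 0.42, and with Reg3g -0.10 and -0.13. These cells share a library and differ in depth, and the values are descriptions.

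Depth differed between the sets, with a median of 16044 and 14132 UMIs for 3 or 4 rule genes and 12510 and 13431 for 1 or 2. When the split was made on cells thinned to 4000 UMIs, 39 control and 43 irradiated members had 3 or 4 rule genes. The same 8 M cell genes were then 2-fold higher in both libraries, with levels taken from all UMIs of the cells. Thinning can only take a rule gene away, so these cells all came from the first set, and the agreement was close to fixed in advance. Median depth was then 15946 and 13199 UMIs for 3 or 4 rule genes and 13084 and 14319 for 1 or 2. The part of depth in the difference was not tested. Members with 3 or 4 rule genes were 1.45% (1.07 to 1.93) of kept control cells and 1.01% (0.750 to 1.32) of kept irradiated cells.

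The last comparison asked whether the members of the irradiated library differed from those of the control library 15 days after 5.5 Gy. Of 4672 genes tested, 2.05% were 2-fold or more higher in irradiated members (96 genes) and 1.99% were lower (93 genes), and 58.0% lay within 0.25 on the log2 scale. The median log2 ratio was -0.02. Of the 14 M cell genes outside the rule, 0 were past 2-fold, with a median of 0.01. Spib had a log2 ratio of -0.41, with a range of -0.65 to -0.16 that lay below 0 but covers counting error only. The median member was not lower, with Spib at 1.10 in the control and 1.12 in the irradiated library, in the unit of the summed levels. Spib had a UMI in 53 of 94 control and 64 of 106 irradiated members. It stood at 10 or more in 14 control and 8 irradiated members. The log2 ratio of Pglyrp1 was -0.53 (-0.63 to -0.43). For Spib the direction differed within the members, with a log2 ratio of -0.48 in those with 3 or 4 rule genes and 1.07 in those with 1 or 2. Sox8 had a log2 ratio of 0.04 (-0.44 to 0.52), Serpinb6a of 0.02 and Tnfrsf11b of 0.01. Of the p53 targets, 0 of 15 tested were past 2-fold (median -0.15), and of the 17 RANK and NF-kB genes 0 were (median 0.06).

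Ccl2, which attracts monocytes, was found in more irradiated members than any of the other 9 genes with the highest ratios. It had 40 UMIs in 5 of 94 control members and 660 UMIs in 23 of 106 irradiated members, which is 0.269 (0.192 to 0.367) and 4.24 (3.92 to 4.57) UMIs per 10000. The log2 ratio was 3.96 (range 3.42 to 4.57), and 4.23 without the cell with most UMIs in each library. It was 2.30 when members were taken from a marker sum of 5 and 2.09 when the rule was applied to cells thinned to 4000 UMIs. In the other eligible cells the log2 ratio was -0.51, on levels of 0.400 and 0.280. It was present in members with 3 or 4 rule genes (12 irradiated cells, 5.18 UMIs per 10000) and with 1 or 2 (11 cells, 3.32). Of 12 other chemokines tested, Ccl2 and Ccl22 were past 2-fold, both higher in irradiated members, and 0 were lower. Of all genes tested, 2.05% were higher and 1.99% were lower. This chemokine list did not hold Ccl7 and Cxcl13, which were also past 2-fold. Their log2 ratios were 3.56 and 3.25, on UMIs in 11 and 9 irradiated members, with 55.6% and 66.1% of the irradiated UMIs in 1 cell. With a marker sum of 5 the ratios were 1.39 and 0.70, so Cxcl13 was no longer past 2-fold. Ccl22, which attracts cells bearing CCR4, was at 0.633 and 1.79, with UMIs in 7 and 18 members. Its levels differed by set, with 1.05 and 0.913 in members with 3 or 4 rule genes (log2 ratio -0.20) and 0.134 and 2.64 in those with 1 or 2 (4.23).

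Prg2, which encodes the major basic protein of eosinophils, was among the leading genes of the members in both libraries and was higher in the irradiated library. It had 776 UMIs in 31 control members and 1958 UMIs in 60 irradiated members, or 5.23 (4.87 to 5.61) and 12.6 (12.0 to 13.1) UMIs per 10000. The log2 ratio was 1.26 (1.10 to 1.43), and 0.29 in the other eligible cells. With a marker sum of 20 it was 0.93 and no longer past 2-fold. Cst3, which encodes the protease inhibitor cystatin C and was listed as a myeloid gene, was at 4.47 and 9.36, with UMIs in 85 and 100 members. These genes had UMIs in many cells of both libraries. Some blood cell markers were also higher in irradiated members, with Ptprc at 3 and 25 UMIs and the thymocyte sum at 0.445 and 1.25 UMIs per 10000. The myeloid sum was at 15.1 and 20.7, but it holds Cst3, and its most abundant gene Lyz2 was at 8.74 and 8.41. The B cell sum was lower. Their part in the levels of Ccl2, Prg2 and Cst3 was not tested.

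Among genes lower in irradiated members, Krt18, a keratin of simple epithelia, was at 14.8 (14.2 to 15.5) and 5.94 (5.57 to 6.34) UMIs per 10000, with UMIs in 91 and 99 members and a log2 ratio of -1.32. It was the only one of 6 epithelial genes past 2-fold, and its log2 ratio in other eligible cells was -0.09. Krt8, its partner keratin, was at 25.9 and 15.5. The small membrane protein gene Smim24 was at 1.78 and 0.308, in 38 and 28 members, with a log2 ratio of -2.52. With a marker sum of 5 the log2 ratio of Smim24 was -1.47. The 10 enterocyte genes tested had a median of -0.53, and Reg3b was among those lower. Of the 17 mucosal secreted products, Lcn2 was higher and Reg3b, Wfdc18 and Ltf were lower (median -0.30), and of the 7 goblet and secretory genes Agr2, Tff3 and Bpifa1 were lower (median -0.39), beside the 2.05% higher and 1.99% lower of all genes. Single cells held much of several of these. For Lcn2, 1 irradiated cell held 70.0% of the UMIs, and without the top cells its log2 ratio was 0.08. For Reg3b, 1 cell held 68.8% and 64.9%.

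**Figure D4:**
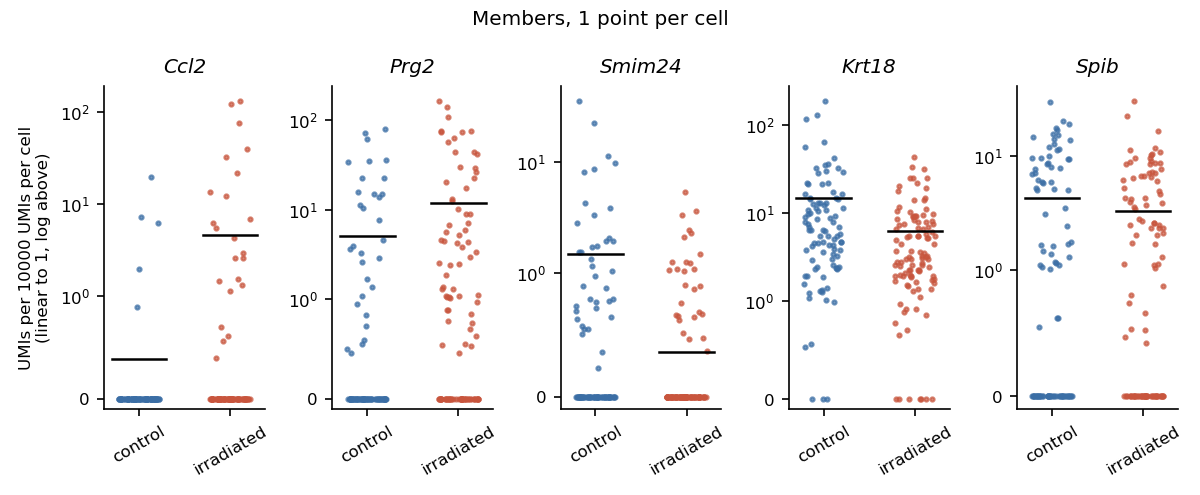
UMIs per 10000 UMIs of 5 genes in each of the 94 control (blue) and 106 irradiated (red) members; the y axis is linear to 1 and logarithmic above, points are spread sideways at random, and the black line is the mean over cells. Ccl2 has UMIs in 5 control and 23 irradiated cells and Prg2 in 31 and 60, while Krt18 is found in 91 and 99 cells at lower values in the irradiated library.

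Many of the largest ratios rested on few cells. Of the 189 genes past 2-fold, 62 (32.8%) had a cell with over 50% of the gene's UMIs in a library, against 27 (0.602%) of the other genes, and 144 stayed past 2-fold in the same direction when each gene's top cell was left out. The 10 highest ratios belonged to Hbb-y, Mcpt1, Klk7, Dppa3, Reg1, Ccl2, Chil4, Ccl7, Akr1c18 and Cxcl13, and Ccl2 apart, none had UMIs in more than 13 irradiated members. Mcpt1, a mast cell protease, had 117 UMIs in 2 irradiated members, 98.3% of them in 1 cell, and 0 in control members. Against a floor of 3 UMIs over the control members, Hbb-y was at least 92.1-fold higher, on 290 UMIs in 3 cells, 57.6% of them in 1 cell. With a marker sum of 20 the log2 ratio of Hbb-y was -0.11.

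The 10 lowest ratios belonged to Mstn, Sval1, Tslp, Bpifa1, Gm94, Clca1, Reg3b, Ang4, Smim24 and Bglap3. Tslp, an epithelial cytokine, had 344 UMIs in 2 control members and 13 in 4 irradiated members. Bpifa1, a secreted protein of the upper airway, had 1552 UMIs in 11 control members, 77.7% of them in 1 cell, and 114 in 11 irradiated members. Clca1, a goblet cell product, had 942 UMIs in 14 control members and 86 in 9 irradiated members. Reg3b had 1791 UMIs in 7 control members and 228 in 10. Each of these 4 genes had UMIs in at most 14 members of a library, whereas Smim24 was found in 38 and 28. Among alternatives, the log2 ratio turned positive for Tslp without Ccl20 (1.67), Clca1 with Aire under 2 (0.63) and Sval1 with the rule on thinned cells (0.49). With a marker sum of 20 it did so for Bpifa1 (0.54) and Ang4 (0.90).

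**Figure D5:**
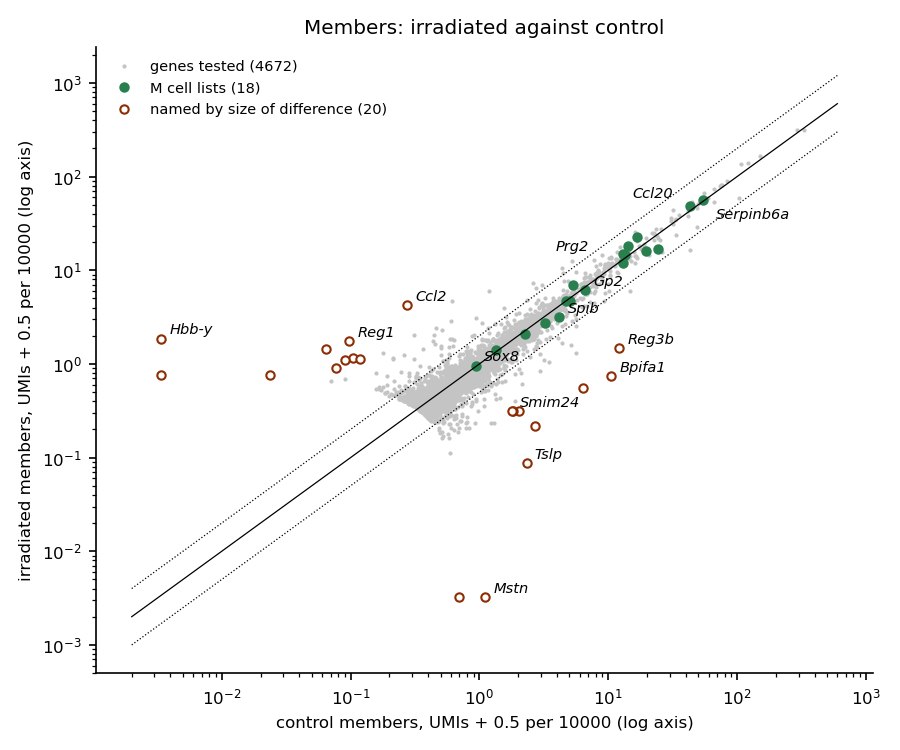
Summed level of each of 4672 genes in control members (x axis) and irradiated members (y axis), in UMIs plus 0.5 per 10000 UMIs on log axes; green points are the M cell lists, open points the 20 genes named for the size of their ratio, the solid line is equality and dotted lines are 2-fold. The green points lie between the dotted lines, and Ccl2 lies above them at 0.269 and 4.24 UMIs per 10000.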

How the data were processed

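Droplet scRNA-seq of sorted TECs gave 1 library per condition, each from 3 pooled mice. The authors deposited unnormalized UMI counts per gene and barcode, made with Cell Ranger (version 5.1 in the submitters' processing notes, 5.0.1 in the matrix header) from reads aligned to the mouse genome. The control library held 4937 barcodes and 58185309 UMIs, and the irradiated library 7167 and 82201657, over 32285 genes. Barcodes were kept with more than 2000 and fewer than 7500 detected genes, counted over genes in at least 5 barcodes, and under 15% mitochondrial UMIs, which kept 65.5% and 70.7%. Scrublet in scanpy 1.11.5 called 1 control and 4 irradiated cells, too few for a working caller, and no doublet was removed.

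Cells are not replicates. UMIs were summed over the cells of a class in each library and given per 10000 summed UMIs, with exact Poisson 95% intervals. Shares have exact Clopper-Pearson intervals. Log2 ratios had 0.5 UMIs added to each sum. A gene was tested with at least 100 UMIs over the members of both libraries, and called past 2-fold. No p-value was computed. Eligible cells met the limits of the rule on Aire, Avil plus Trpm5, Psmb11 plus Prss16 and Mki67 plus Top2a, and other eligible cells had a marker sum under 10. Enterocyte-marker cells had 10 or more UMIs per 10000 of Lypd8, Reg3g, Apoa4 and Saa1, and cells near the threshold a marker sum of 5 to under 10. The classes of Aire-high, tuft-marker, cycling and cortical (cTEC) cells were those above the rule's limits.

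Named genes were those of the rule and the marker lists, the 10 highest and 10 lowest ratios between the libraries whose range lay to 1 side of 0, and the 20 leading genes over other eligible cells. The members, lists and rules were chosen with earlier results of these data known. The split by the number of rule genes, with the genes named from it, was chosen after its values were seen. Simulated counts in which 200 genes were changed by known folds served to test the scripts. Alternatives changed the cell limits, the marker sum, each rule gene, the Aire limit, the doublet scores, the thinning, the denominator, the summary over cells, the minimum of UMIs and the scaling. Gene positions are those of GENCODE M21, matched by Ensembl ID for the genes whose position is given, and all 4 rule genes matched a RefSeq promoter. Python 3.11.15, numpy 2.4.6, scipy 1.17.1, pandas 2.3.3 and matplotlib 3.10.9 were used. Some listed genes are not reported here by name.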

Additional observations from a re-analysis of the deposited data

Results flagged for a closer look

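Of the named genes, 10 were 2-fold or more higher in members than in other eligible cells in one library and 2-fold or more lower in the other, and the log2 ratios of these genes are given. The difference was not tested in any of them. It was -5.30 in the control and 4.92 in the irradiated library for Hbb-y, -3.79 and 4.25 for Mcpt1, -2.95 and 3.75 for Klk7, and -3.10 and 1.54 for Dppa3. For Reg1, a secreted gut lectin, it was -1.35 and 4.11, and for the chemokine genes Ccl7 and Cxcl13 it was -2.45 and 1.32, and -1.09 and 1.5. The order was the other way for Mstn with 6.21 and -1.87, Sval1 with 4.89 and -4.16, and Bpifa1 with 2.14 and -1.5. Hbb-y, Mcpt1, Mstn and Sval1 had 0 UMIs in the members of a library, so their fitted ratios depend on the added 0.5 UMIs. Mstn had 163 UMIs in 7 control members, 92.0% of them in 1 cell, and Sval1 had 103 in 3, 70.9% of them in 1 cell. For Dppa3, 1 cell held 91.2% of the UMIs in irradiated members.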

How the results depend on the processing

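The log2 ratio of the members' share stayed below 0 under every alternative run, from -0.25 with a marker sum of 5 to -0.65 without Ccl20, but its range reached above 0 in each of them. The numbers of genes past a fold moved with the minimum of UMIs, since this sets which genes are tested: between the libraries 395 with a minimum of 50 UMIs and 60 with 300, and for members over other cells 327 with 300. With the rule applied to a random part of the UMIs, 440 genes were higher in members, of fewer genes tested. Among named genes past 2-fold, the ratio between the libraries changed sign for Klk7 (-0.27) and Chil4 (-1.63) with a marker sum of 5, for Hbb-y (-0.11), Bpifa1 (0.54) and Ang4 (0.90) with 20, for Tslp without Ccl20 (1.67), Ang4 without Ccl6 (0.18), Bpifa1 without Gp2 (0.48), and Clca1 with Aire under 2 (0.63). It changed for Klk7 (-0.04) and Sval1 (0.49) with the rule on thinned cells, and for Klk7 (-1.59) with 2 or more rule genes (tried only once the values had been seen). Without a change of sign, the ratio fell within 2-fold for Reg1 (0.81) and Cxcl13 (0.70) with a marker sum of 5, Prg2 (0.93) with 20, Klk7 (0.09), Cxcl13 (0.45) and Gm94 (-0.22) without Ccl20, and Cxcl13 (0.48) and Sval1 (-0.07) with Aire under 2. The cause was not tested. All 378 values of Spib and the 20 leading genes over 18 settings stayed past 2-fold, the lowest a log2 of 2.11 for Spib with a marker sum of 5. The 20 leading genes had been chosen for their high folds in these same cells. For them this was close to fixed in advance and is not a separate result. Under thinned cells the split by rule genes gave 171 genes higher and 204 lower. Depth limits the shares of cells with a UMI, as a cell without one may still express the gene: thinning lowered the share of members with Sox8 from 34.0% and 34.0% to 18.1% and 17.9%, and with Hnf4g from 42.6% and 33.0% to 11.7% and 14.2%. No paired analysis was possible because there is 1 library per condition.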

Other observations

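Gp2 was not particular to the members. Tuft-marker cells, which the rule leaves out, had 1.64 control and 1.13 irradiated UMIs of Gp2 per 10000, against 0.0403 and 0.0322 in other eligible cells, and their Ccl6, Ccl9 and Ccl20 were at most 0.100.

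The other gene lists were as follows, beside 15.4% of all genes tested that were 2-fold higher in members in both libraries and 4.78% that were lower; the small counts of these lists are descriptions. Of 6 tested genes of Ccl21a+ mTECs, 4 were 2-fold lower in members in both libraries and 0 higher (median log2 -2.00 and -2.51), and the list summed to 31.97 and 23.7 UMIs per 10000 in members against 104 and 118 in other eligible cells. Of 6 tested genes of Aire+ mTECs, Cd80 and Ctss were higher. Cd80, a costimulatory ligand, was also the only gene higher of 5 costimulation genes. Of 15 p53 targets, the cell cycle inhibitor Cdkn1a and the stress cytokine Gdf15 were higher in members in both libraries, a share below that of all genes. Of 16 immediate early and heat shock genes, 1 was lower and 0 were higher, and their medians were -1.06 and -0.48. Of 12 other chemokines, Ccl22, Cxcl2 and Cxcl16 were higher and 1 was lower. The goblet and secretory list had 6 of 7 higher, keratinocyte 2 of 4, B cell 1 of 1 (Cd79b) and myeloid 3 of 4 (Lyz2, Fcer1g and Itgam). In the epithelium list 2 of 6 were lower, and in the cTEC list 1 of 3. Neither the neuroendocrine gene nor the 2 cycle genes tested were past 2-fold in both libraries. The tuft, ionocyte, ciliated, muscle, thymocyte and stroma lists had 0 genes with enough UMIs to test. Between the libraries, the interferon list had a median log2 of 0.18 with Ifit3 lower, and the immediate early list -0.47 with Fosb lower. Krt10 was higher and Krtdap lower in irradiated members, but 91.6% of the irradiated Krt10 UMIs were in 1 cell, and without the top cells the log2 ratio of Krt10 was -0.72 and that of Krtdap -0.33.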
